A study of Sus scrofa with 30 samples.

Results

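The genes described here are transcription factors and markers of the hypoblast, the primitive endoderm of the mammalian embryo. The list was fixed by name and held 9 symbols (GATA4, GATA6, SOX17, HNF4A, FOXA2, FOXA3, PDGFRA, CER1 and DAB2), each looked up by its NCBI gene identifier in the table of 13103 genes counted over all embryos. Values were analysed for 8 of the 9, and CER1 was not analysed here. In the separate tables of each day, 7 of them passed the authors' filter on low values on Day 8 and on Day 10, and 8 on Day 12; the gene missing on the earlier days was FOXA3, so a rise of FOXA3 by Day 12 was partly built into its presence in the data.

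RNA was sequenced from 30 single whole pig embryos, 10 on each of Days 8, 10 and 12 after insemination, 5 female and 5 male on each day. No treatment was compared. All were from German Landrace × Pietrain gilts inseminated with sperm of 1 Pietrain boar, so they share their sire. Each day's embryos came from 4 gilts, so some were littermates, but which is unknown and no test accounts for it. The embryo was used whole, embryonic disc and trophectoderm together with the hypoblast it held, and sex was that given for each embryo.

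The hypoblast is the epithelium that forms beneath the epiblast in the blastocyst, spreads along the inner face of the trophectoderm and goes on to line the yolk sac. GATA6 and then GATA4, SOX17 and FOXA2 mark its specification and maturation, the receptor PDGFRA is an early surface marker, and HNF4A drives the liver-like secretory programme of the visceral endoderm. DAB2 is an endocytic adaptor of the same epithelium that the trophoblast also makes, and PDGFRA is carried by mesoderm as well, so neither is particular to the hypoblast.

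Total counts ran from 6068212, in the Day 12 female embryo d12_f_245, to 34002508. The Day 8 male embryo d08_m_121 stood apart from its day in 4 of these genes and d12_f_245 in 1, DAB2. Some of the results that rest on them, but not all, are given with and without them. Levels below are CPM, each count as parts of 1e6 counts of its library, scaled by the trimmed mean of M values (TMM). In whole embryos fewer hypoblast cells and less RNA per hypoblast cell cannot be told apart. Transcript lengths were not used here, so no level is compared between genes. The genes lie on 6 chromosomes of the Sscrofa11.1 assembly: GATA4 (gene 397555) at chr14:14858470-14938156, GATA6 (397600) at chr6:107282709-107314725, FOXA3 (100512416) at chr6:52181095-52188777, SOX17 (100154087) at chr4:76854218-76857143, HNF4A (733636) at chr17:46783772-46847505, FOXA2 (100513828) at chr17:29997397-30001704, PDGFRA (100627123) at chr8:40966568-41021440 and DAB2 (100519746) at chr16:24590638-24776937. Counts are per gene and do not separate isoforms.

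**Figure D1:**
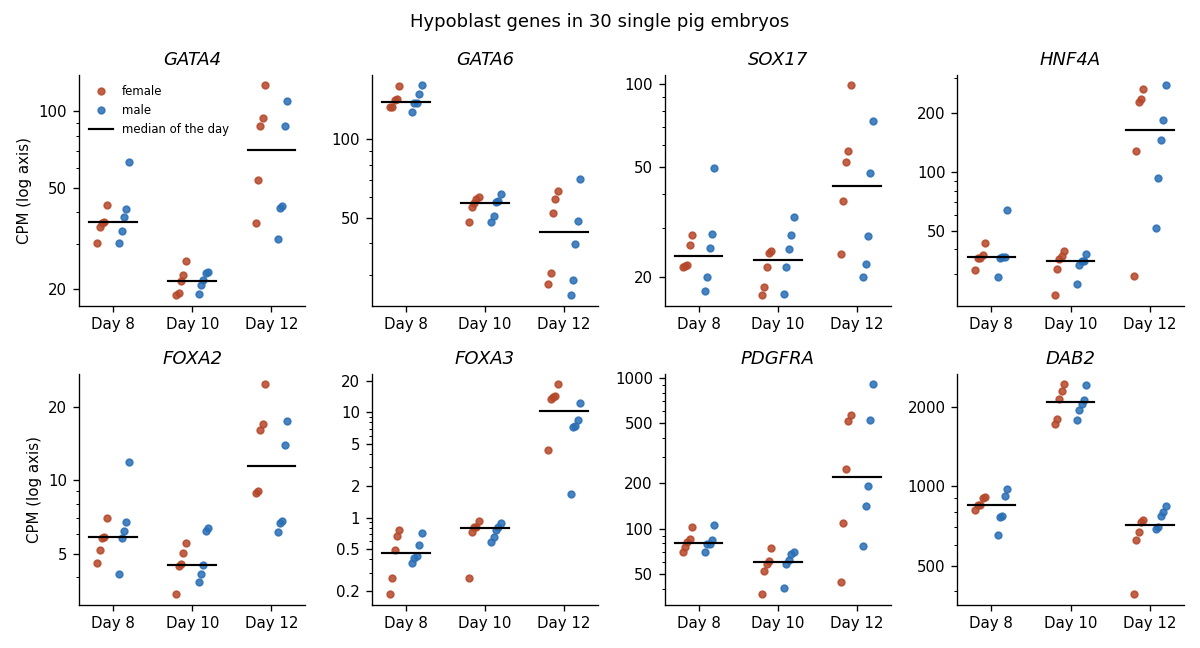
CPM of each gene in each embryo on a log axis, by day and sex, with the median of the day as a line (10 embryos a day). GATA6 stepped down from Day 8 to Day 10, DAB2 peaked on Day 10, and the other 6 genes had their highest median and their widest spread on Day 12.

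The hypoblast genes did not move as a block. From Day 8 to Day 10, GATA6 fell and DAB2 rose. From Day 10 to Day 12, GATA4, HNF4A, FOXA2, FOXA3 and PDGFRA rose, and DAB2 fell, while GATA6 and SOX17 were not called. The SD of log2 CPM between embryos was larger on Day 12 than on Day 10 in all 8 genes. The median SD over all genes rose too, from 0.286 to 0.453. In DAB2 the Day 12 SD includes d12_f_245, at 390 CPM where the next lowest embryo was at 626 CPM. Its SD without that embryo is not given here. A gene was called between days at an FDR under 0.001 (edgeR quasi-likelihood F test, Benjamini-Hochberg adjusted over all 13103 genes) with an absolute log2 fold change over 1. From Day 8 to Day 10, 2 of 8 genes were called, against 14.1% of all genes tested. From Day 10 to Day 12, 6 of 8 were called, against 23.3% of all genes. Over both intervals, from Day 8 to Day 12, 5 of 8 were called (4 higher and 1 lower), against 32.5% of all genes (22% higher and 10.4% lower). Neither gene called from Day 8 to Day 10 passed when tested against a log2 fold change of 1 itself, which 5 genes did from Day 10 to Day 12. FOXA3, whose rise was partly built in, is in each of these counts that end on Day 12. The comparisons share embryos, so their changes are not independent of each other.

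GATA6, the GATA factor that begins the primitive endoderm fate, was called lower from Day 8 to Day 10 and was the 1 of the 8 called lower from Day 8 to Day 12. On Day 8 its CPM had a lowest value of 127, a median of 139 and a highest value of 161. On Day 10 the corresponding values were 48.1, 57.1 and 61.5. No embryo of Day 10 reached the lowest embryo of Day 8, and within each of these days the embryos lay close together. The log2 fold change was -1.36 (SE 0.14, adjusted p = 3.73e-09, edgeR). On Day 12 GATA6 ran from 25.2 over a median of 43.9 to 70.6 CPM. The Day 12 embryos lay on both sides of the Day 10 range, and the change of -0.32 on the log2 scale (SE 0.14, adjusted p = 0.0523, edgeR) was not called.

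GATA4, the related factor of committed primitive endoderm, took another course. Its CPM on Day 8 ran from 30.4 over a median of 36.6 to 63.1. On Day 10 it ran from 18.9 over a median of 21.6 to 25.7, and on Day 12 from 31.5 over a median of 70.4 to 127. Every embryo of Day 10 was below every embryo of Days 8 and 12. The drop to Day 10 had a log2 fold change of -0.85 (SE 0.20, adjusted p = 0.000586, edgeR), under the fold required for a call. The rise to Day 12 was called, with a log2 fold change of 1.72 (SE 0.20, adjusted p = 1.18e-08, edgeR). Over the whole period, from Day 8 to Day 12, GATA4 changed by 0.87 on the log2 scale (SE 0.20, adjusted p = 0.000240, edgeR) and was not called.

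SOX17, a SRY-box factor that maintains endoderm identity, changed less. Its CPM ran from 17.9 over a median of 23.8 to 49.7 on Day 8, from 17.2 over 23.0 to 33.0 on Day 10, and from 19.9 over 42.7 to 98.8 on Day 12. The days overlapped throughout. The log2 fold change was -0.17 (SE 0.23) from Day 8 to Day 10 and 0.99 (SE 0.23, adjusted p = 0.000546, edgeR) from Day 10 to Day 12, just short of the fold required. It was called in 9 of the 42 other settings tried, so SOX17 lies at the edge of the rule.

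FOXA2, a forkhead pioneer factor of endoderm, had its lowest values on Day 10. Its CPM ran from 4.12 over a median of 5.84 to 11.9 on Day 8, from 3.41 over 4.51 to 6.34 on Day 10, and from 6.11 over 11.5 to 24.9 on Day 12. Days 10 and 12 overlapped in 1 embryo of Day 12, the lowest, male d12_m_307. The rise from Day 10 to Day 12 had a log2 fold change of 1.40 (SE 0.22, adjusted p = 3.09e-06, edgeR), and in male embryos alone, at 1.03, it was not called. Its call from Day 8 to Day 12 (log2 fold change 1.002, SE 0.22, adjusted p = 0.000178, edgeR) was lost in 18 of 42 other settings, among them the fit without d08_m_121 and d12_f_245, where the value was 0.99.

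HNF4A, the nuclear receptor of the secretory endoderm, ran in CPM from 29.0 over a median of 36.4 to 63.9 on Day 8 and from 23.4 over 34.9 to 39.3 on Day 10. On Day 12 it ran from 29.4 over 163 to 275.96. Of the Day 12 embryos, female d12_f_271, at 29.4, lay inside the Day 10 range, and male d12_m_307, at 51.8, lay above it but inside that of Day 8. The log2 fold change from Day 10 to Day 12 was 2.28 (SE 0.26, adjusted p = 8.48e-09, edgeR), and that from Day 8 to Day 10 was -0.21 (SE 0.25, adjusted p = 0.504, edgeR).

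FOXA3, a forkhead factor of gut endoderm and liver, was barely counted before Day 12. It had 4 to 20 counts an embryo on Day 8 and 6 to 21 on Day 10, which gave medians of 0.464 and 0.788 CPM. On Day 12 it had 43 to 467 counts, and its CPM ran from 1.66 over a median of 10.36 to 18.5. All 10 embryos of Day 12 were above all 20 earlier embryos. The log2 fold change from Day 10 to Day 12 was 3.80 (SE 0.32, adjusted p = 7.89e-12, edgeR), and its size rests on the few counts of Day 10.

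PDGFRA, the receptor for PDGFA, showed the widest range. Its CPM ran from 69.5 over a median of 80.6 to 106 on Day 8 and from 36.8 over 59.7 to 73.8 on Day 10. On Day 12 it ran from 43.9 over 219 to 910, a 20.7-fold range among embryos of the same day. Female d12_f_271 lay inside the Day 10 range and male d12_m_307, at 77.2, just above it. The rise from Day 10 had a log2 fold change of 2.52 (SE 0.36, adjusted p = 3.85e-07, edgeR). The earlier change of -0.52 (SE 0.34, adjusted p = 0.193, edgeR) was not called.

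DAB2 was called higher up to Day 10 and lower after it. Its CPM ran from 653 over a median of 850 to 974 on Day 8, from 1732 over 2102 to 2451 on Day 10, and from 390 over 716 to 840 on Day 12. Day 10 stood clear of both other days without overlap. The log2 fold changes were 1.31 (SE 0.10, adjusted p = 6.42e-12, edgeR) up to Day 10 and -1.58 (SE 0.10, adjusted p = 2.77e-14, edgeR) down to Day 12. Between Days 8 and 12 it changed by -0.27 (SE 0.10, adjusted p = 0.0154, edgeR) and was not called.

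Counted by overlap of the embryos' CPM, 1 gene was higher on Day 10 than on Day 8 in every embryo and 2 were lower, where 11% of all genes were higher and 11% lower. From Day 10 to Day 12, 2 were higher in every embryo (GATA4 and FOXA3) and 1 was lower (DAB2), where 8.4% of all genes were higher and 8.2% lower. The rise of FOXA3 was partly built in, and apart from it only GATA4 was higher in every embryo. The median log2 fold change of the 8 genes was -0.30 from Day 8 to Day 10 and 1.56 from Day 10 to Day 12, where the medians over all genes tested were 0.03 and 0.04.

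**Figure D2:**
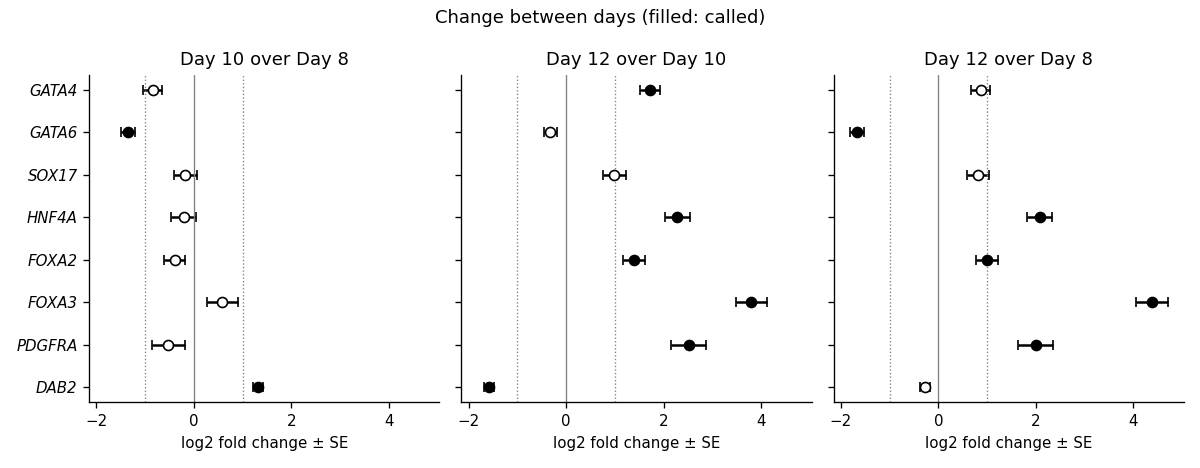
log2 fold change ± SE of each gene for Day 10 over Day 8, Day 12 over Day 10 and Day 12 over Day 8, from 1 fit over 30 embryos; filled points were called and dotted lines mark a log2 fold change of 1 in each direction. GATA6 and DAB2 are the 2 filled points from Day 8 to Day 10, and 5 filled points lie to the right and DAB2 to the left from Day 10 to Day 12.

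The proportions of the genes within an embryo were also followed, as the count of each gene divided by the count of GATA4 in the same library, a ratio on which the scaling has no bearing. It compares days for 1 pair of genes and says nothing of which gene is the more abundant. For GATA6 the ratio ran from 2.56 to 4.68 on Day 8 (mean 3.79, SD 0.691, n = 10), from 2.19 to 3.22 on Day 10 (mean 2.60, SD 0.344, n = 10) and from 0.501 to 0.928 on Day 12 (mean 0.670, SD 0.149, n = 10). Days 8 and 10 overlapped, and Day 12 lay below every earlier embryo. The log2 ratio fell by 1.97 from Day 10 to Day 12 (permutation test over embryos, adjusted p = 7.56e-05 over 13102 genes). Because GATA4 itself rose in that interval, 81.3% of all genes were lower relative to it by the same test, and the drop of GATA6 is one among these.

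HNF4A kept close proportion to GATA4 on Day 8, with a ratio from 0.859 to 1.19, and lay higher in every Day 10 embryo, from 1.22 to 1.83; the difference of 0.63 on the log2 scale (permutation adjusted p = 7.16e-05) stood where 78.9% of all genes were higher relative to GATA4. On Day 12 its ratio spread from 0.811 to 3.48, and the change from Day 10 of 0.45 on the log2 scale missed the threshold (permutation adjusted p = 0.0545). The ratio of SOX17 to GATA4 had a mean of 0.667 (SD 0.0830, n = 10) on Day 8, 1.08 (SD 0.260) on Day 10 and 0.640 (SD 0.0728) on Day 12. The ratio of Day 12 was no wider than that of Day 8, although both genes spread most on Day 12. For PDGFRA the ratio spread from 0.864 to 8.26 on Day 12, where it had run from 1.92 to 3.41 on Day 10, and the change in its mean was not called (0.42 on the log2 scale, permutation adjusted p = 0.278).

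**Figure D3:**
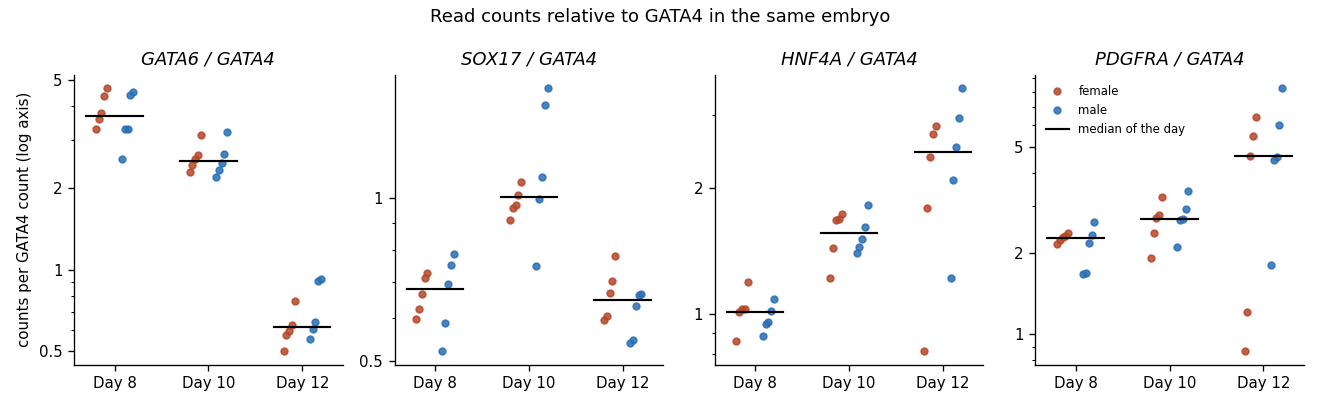
Read counts of GATA6, SOX17, HNF4A and PDGFRA per GATA4 count in the same embryo, on a log axis, by day and sex, with the median of the day as a line (10 embryos a day). GATA6 lies below 1 in all 10 embryos of Day 12 and above 2 in all earlier ones, SOX17 is back in its Day 8 range on Day 12, and HNF4A and PDGFRA spread out on Day 12.

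On Day 12 the same embryos were high for several genes at once. The SD of log2 CPM between embryos was 1.42 for PDGFRA, 1.08 for HNF4A and 1.01 for FOXA3 on Day 12, where the median SD over all genes was 0.453. On Day 10 these SDs were 0.33, 0.24 and 0.44, where the median over all genes was 0.286. The spread of each gene was compared between days by a permutation test on the absolute deviation from the day's median, adjusted over all genes. From Day 10 to Day 12 it widened past an FDR of 0.05 in GATA4 (SD 0.145 to 0.730, permutation adjusted p = 0.00468) and in GATA6 (SD 0.130 to 0.546, permutation adjusted p = 0.0480), 2 of 8 genes against 0.382% of all genes. From Day 8 to Day 12 it widened in GATA6 (permutation adjusted p = 0.0156) and PDGFRA (permutation adjusted p = 0.0288), 2 of 8 against 1.76% of all genes. DAB2 had an SD of 0.311 on Day 12, below the median of all genes.

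Of the 10 embryos of Day 12, the same 5 held ranks 1 to 5 in each of GATA4, GATA6, SOX17, HNF4A and FOXA2. They were 3 females and 2 males: d12_m_275, d12_f_297, d12_f_299, d12_f_245 and d12_m_249. In FOXA3 4 of these 5 were among the highest 5, with d12_f_289 in place of d12_m_275. In PDGFRA 4 of the 5 were, again with d12_f_289, this time in place of d12_f_245. In DAB2 only 2 of them were. The step between ranks 5 and 6 was the widest step in GATA4, from 87.3 down to 53.6 CPM, and in FOXA2, from 13.9 down to 9.04 CPM. In the other genes the widest step lay elsewhere, so the embryos were not split at the same point by every gene.

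**Figure D4:**
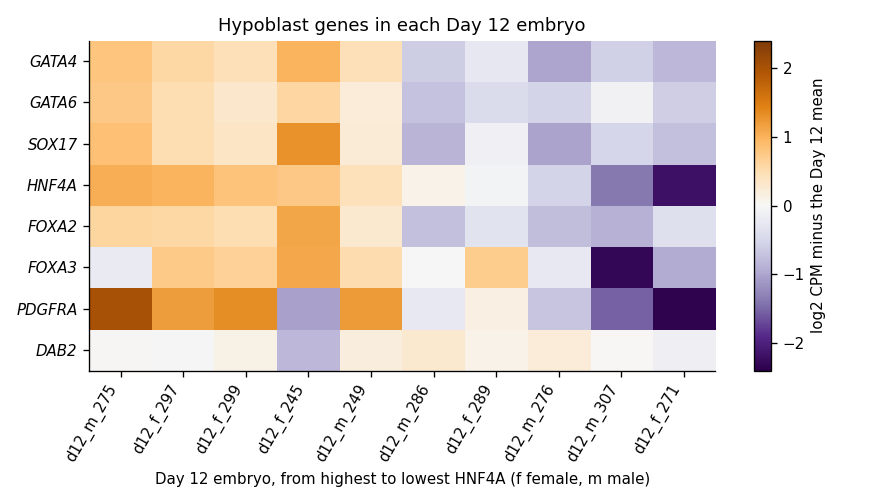
log2 CPM minus the Day 12 mean for each gene (rows) and each of the 10 Day 12 embryos (columns, from highest to lowest HNF4A), on a colour scale centred on 0. The left 5 columns are above the mean in GATA4, GATA6, SOX17, HNF4A and FOXA2, d12_f_245 is below it in PDGFRA and DAB2, and d12_m_307 and d12_f_271 are lowest in HNF4A and PDGFRA.

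Single embryos show how far this went. Male d12_m_275 had the highest PDGFRA (910 CPM), HNF4A (275.96 CPM) and GATA6 (70.6 CPM) of Day 12, yet its FOXA3, at 7.44 CPM, ranked 7. Female d12_f_245 had the highest GATA4 (127 CPM), SOX17 (98.8 CPM), FOXA2 (24.9 CPM) and FOXA3 (18.5 CPM), but its PDGFRA, at 109.4 CPM, ranked 8 and its DAB2, at 390 CPM, ranked 10. The embryos with the 2 highest GATA4 levels thus held the highest and one of the lowest PDGFRA levels. Female d12_f_271 and male d12_m_307 held the lowest ranks, 9 and 10, in HNF4A, FOXA3 and PDGFRA together.

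Correlations of log2 CPM between embryos were computed within each day for the 28 pairs of genes, 84 relations in all, with p adjusted over these 84 (two-sided permutation test, 100000 resamples). On Day 12, 8 of the 28 pairs passed an adjusted p of 0.05 by Pearson's r, and these 8 were among the 9 that did so by Spearman's rho. GATA4 and SOX17 had r = 0.98 and rho = 0.99 (permutation p = 1e-05, the smallest these resamples give, adjusted p = 0.000840), and r stayed at 0.97 without the 2 embryos farthest from the median. GATA4 and FOXA2 had r = 0.95 and rho = 0.92 (permutation p = 0.000290, adjusted p = 0.00605), with 0.99 without those 2. GATA4 and GATA6 had r = 0.93 and rho = 0.93 (permutation p = 0.000760, adjusted p = 0.0106), with 0.91 without them. The embryos thus kept nearly 1 order across these factors on that day.

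HNF4A was tied to GATA4 (r = 0.81, rho = 0.84, permutation p = 0.00244, adjusted p = 0.0186) and to PDGFRA (r = 0.85, rho = 0.82, permutation p = 0.00128, adjusted p = 0.0121). Without the 2 embryos farthest from the median HNF4A, its r to PDGFRA was 0.62. PDGFRA and GATA4 had r = 0.64 (rho = 0.53, permutation p = 0.0475, adjusted p = 0.117), which did not pass. Without d12_f_245 alone, left out after the data were seen, that r was 0.90 (exact permutation p = 0.00174, not adjusted). Of the 28 pairs, 17 had an unadjusted permutation p under 0.05 without that embryo and 16 with it. DAB2 had no pair past the threshold on Day 12: its r to the other genes ran from -0.62 to 0.34, with a median of -0.46. Without d12_f_245 its r ran from -0.28 (GATA6) to 0.37 (HNF4A). It was then -0.13 to GATA4, -0.25 to SOX17 and FOXA2, 0.34 to FOXA3 and 0.26 to PDGFRA. FOXA3, with r from -0.22 to 0.76, had no pair past the threshold either.

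Over the 15 pairs among GATA4, GATA6, SOX17, HNF4A, FOXA2 and PDGFRA, the median r was 0.68 on Day 8, 0.32 on Day 10 and 0.81 on Day 12, where the median over all pairs of genes was near 0 on each day. The Day 10 value was 0.12 without d10_f_433, 0.58 without d10_m_435, 0.05 when scaled by library size alone and 0.18 once the first principal component of all genes was taken off. An r of at least 0.8 was reached by 6 of 28 pairs on Day 8, where 0.786% of all pairs of genes reached it, by 1 of 28 on Day 10, where 2.64% did, and by 8 of 28 on Day 12, where 4.9% did. Leaving out any 1 embryo of Day 12 gave between 8 and 11 pairs past the threshold.

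The relations of Day 8 had another footing. By Pearson's r 5 pairs passed, all among GATA4, SOX17, HNF4A and FOXA2, with r from 0.88 to 0.92, and by Spearman's rho 0 did (6 at an unadjusted permutation p under 0.05). Embryo d08_m_121 was the highest of its day in GATA4 (63.1 CPM, next 42.7), SOX17 (49.7 CPM, next 28.7), HNF4A (63.9 CPM, next 42.9) and FOXA2 (11.9 CPM, next 7.01). Without it 0 of 28 pairs passed (3 at an unadjusted exact permutation p under 0.05), and the median r over the 15 pairs was 0.32. Without female d08_f_124 or male d08_m_136, 3 pairs passed. Of the 5 pairs, without d08_m_121 SOX17 and FOXA2 had r = 0.75, GATA4 and FOXA2 0.73 and GATA4 and SOX17 0.68 (exact permutation p = 0.0192, 0.0250 and 0.0470, not adjusted). Without that same embryo HNF4A had 0.61 to GATA4 and 0.55 to SOX17 (exact permutation p = 0.0731 and 0.127). The adjusted calls of Day 8 thus rest on d08_m_121.

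On Day 10, 2 pairs passed by Pearson's r, and 1 of them by Spearman's rho. HNF4A and PDGFRA had r = 0.96 and rho = 0.81 (permutation p = 0.000140, adjusted p = 0.00392), and r = 0.78 without the 2 embryos farthest from the median. Embryos d10_f_433 and d10_m_435 were the lowest of the day in both genes, at 23.4 and 26.7 CPM of HNF4A and 36.8 and 40.4 CPM of PDGFRA. GATA6 and DAB2 went in opposite directions, with r = -0.80 and rho = -0.89 (permutation p = 0.00660, adjusted p = 0.0380), and r = -0.71 without 2 embryos. Leaving out 1 embryo gave 1 pair (without d10_f_317, d10_f_433, d10_m_318 or d10_m_435) to 4 pairs (without d10_f_315). GATA4 and GATA6, whose r was 0.93 on Day 12, had r = 0.11 on Day 10 and 0.43 on Day 8; the difference between days was not tested.

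**Figure D5:**
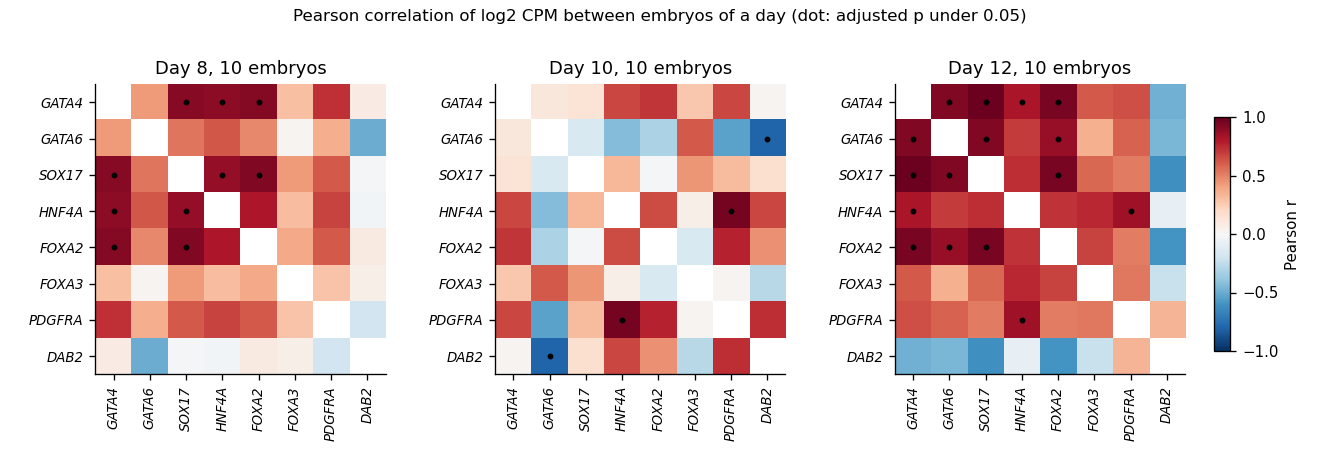
Pearson r of log2 CPM between embryos for each pair of genes on Days 8, 10 and 12 (10 embryos a day), on a colour scale from -1 to 1, with a dot where the permutation p adjusted over 84 relations was under 0.05. Day 12 has the most dots (8 pairs), DAB2 is the pale or blue row of that day, and the 5 pairs of Day 8 are those lost without d08_m_121.

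Female and male embryos were compared within each day in that day's table. With an FDR under 0.05 in edgeR, 0 of 7 hypoblast genes differed on Day 8 (0.658% of all genes did), 0 of 7 on Day 10 (0.223%) and 0 of 8 on Day 12 (0.123%). At an unadjusted p under 0.05 it gave 0 on each day. Of all genes, 524 of 11405 had such a p on Day 8 and 2775 of 12220 on Day 12. Fewer had one on Day 10 than on Day 8. The robust GLM of edgeR and DESeq2 called 0 hypoblast genes as well. The difference on Day 12 with the smallest p was FOXA3, with a log2 fold change of female over male of 0.83 (SE 0.47, adjusted p = 0.288, edgeR). PDGFRA had -0.32 (SE 0.75, adjusted p = 0.811, edgeR), the least precise of these comparisons. For GATA6 on Day 8 the difference was -0.01 (SE 0.08), the most precise. The sex difference changed between days past an FDR of 0.05 in 0 of 8 genes by edgeR or DESeq2. In edgeR 0% of all genes passed, and 0 of the 8 had an unadjusted p under 0.05. Of all 13103 genes, 100 had such a p from Day 8 to Day 10. The counts were 2473 from Day 10 to Day 12 and 2863 from Day 8 to Day 12. FOXA2 between Days 8 and 12 came nearest (0.85, SE 0.43, unadjusted p = 0.0582, adjusted p = 0.244).

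The genes that the hypoblast factors work with were read from fixed lists, chosen with earlier results of these data known, under the same call rule. Between Days 10 and 12 that rule called 14.9% of all genes higher and 8.39% lower, and between Days 8 and 10 9.88% higher and 4.2% lower. A few genes are in a pair of lists (LRP2, AMN, OTX2, LHX1, HHEX, SALL4 and TDGF1) and are counted in both. Counts are over the genes analysed, which were 14 of 20 listed for the yolk sac, 12 of 14 partner factors and 8 of 9 DAB2 partners. They were 8 of 11 in the FGF and PDGF list and in the anterior hypoblast list, 7 of 13 for mesoderm and 3 of 8 for blood. Genes near 0 on the other days entered the table through the day on which they were high, so their rises or falls were partly built in. Of 10 basement membrane proteins that primitive endoderm secretes in quantity, 0 were called from Day 8 to Day 10 by edgeR (median log2 fold change 0.01). At an unadjusted p under 0.05 there were 3, where 7922 of all 13103 genes had such a p. From Day 10 to Day 12, 9 of the 10 rose and 0 fell, with a median log2 fold change of 1.87. They included the laminin chain LAMA1 (log2 fold change 1.89, SE 0.23, adjusted p = 2.11e-08, edgeR), the collagen IV chain COL4A2 (1.93, SE 0.18, adjusted p = 5.50e-11), NID2, which joins the laminin and collagen networks (2.28, SE 0.25, adjusted p = 3.70e-09), and SERPINH1, the collagen chaperone (2.01, SE 0.22, adjusted p = 2.97e-09). NID1 was at 0.93 (SE 0.24) and not called.

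Of 12 partner transcription factors, 4 rose and 3 fell from Day 10 to Day 12. NR5A2, a nuclear receptor, rose from 0.483 ± 0.157 to 17.2 ± 9.14 CPM (SD, n = 10), and FOXA1, a forkhead relative of FOXA2, from 1.52 ± 0.611 to 12.1 ± 4.04 CPM. GATA5 rose as well, from 3 counts or fewer in 9 of 10 embryos of Day 10 to a mean of 1.07 CPM (SD 1.16); on Day 8 it was at 3 counts or fewer in all 10, so it entered the table through Day 12 and its rise, like that of FOXA3, was partly built in. Apart from it 3 of the 12 rose. EOMES, OTX2 and LHX1 fell; the first 2 were at 3 counts or fewer in all 10 embryos of Day 12. In the earlier interval 1 of the 12 rose (FOXA1) and 4 fell (HHEX, CREB3L3, NR5A2 and OTX2).

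Among 14 secreted and uptake proteins of the yolk sac, 6 rose and 2 fell from Day 10 to Day 12. SERPINA1, 1 of the 6, had 3 counts or fewer in 8 of 10 embryos of Day 10 and in all 10 of Day 8. Its rise was thus partly built in. The risers carry lipids and vitamin A in plasma, or are plasma proteins of the foetal liver and yolk sac. APOA1 rose from 938 ± 212 to 2551 ± 1451 CPM (SD, n = 10), APOE from 205 ± 41.8 to 854 ± 650 CPM, RBP4 from 19.8 ± 21.7 to 239 ± 118 CPM and AHSG from 0.921 ± 0.181 to 21.8 ± 24.3 CPM. The 2 that fell, LRP2 and AMN, belong to the uptake machinery that DAB2 serves. In the earlier interval 3 rose (RBP4, FGB and APOM) and 0 fell.

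The endocytic partners of DAB2 fell from Day 10 to Day 12 in 6 of 8 cases, with a median log2 fold change of -1.16. They were the scaffold ITSN1 (-1.98, SE 0.14, adjusted p = 4.20e-13, edgeR), the motor MYO6 (-1.63, SE 0.14, adjusted p = 3.09e-11), the receptor LRP2 (-1.33, SE 0.18, adjusted p = 2.40e-07), AMN, the membrane partner of cubilin, the clathrin adaptor EPS15 and the clathrin heavy chain CLTC. DAB1, the neuronal relative of DAB2, rose from 3 counts or fewer in 8 of 10 embryos to a mean of 15.0 CPM (SD 10.3). In the earlier interval, when DAB2 rose, 1 of the 8 rose (MYO6) and 1 fell (DAB1).

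Of 8 ligands, receptors and targets of FGF and PDGF signalling, 4 rose from Day 8 to Day 10 and 0 fell, 1 rose and 2 fell (DUSP6 and PDGFC) from Day 10 to Day 12, and 3 rose and 3 fell over the whole period. FGFR2, a receptor through which FGF4 directs primitive endoderm, rose from 1.94 ± 0.870 to 11.5 ± 3.65 CPM (SD, n = 10) and again to 53.1 ± 26.1 CPM on Day 12. PDGFA, the ligand of PDGFRA, rose from 23.1 ± 3.35 to 52.1 ± 7.49 CPM by Day 10, before the rise of its receptor, and changed by 0.27 on the log2 scale (SE 0.14) thereafter. DUSP6, a feedback target of ERK, rose to Day 10 and fell by 2.51 on the log2 scale to Day 12 (SE 0.20, adjusted p = 4.17e-12, edgeR).

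Genes of the anterior hypoblast and of NODAL signalling fell from Day 10 to Day 12 in 5 of 8 cases, and 0 rose. From Day 8 to Day 10 3 had risen (TDGF1, DKK1 and SFRP1) and 3 had fallen (HHEX, OTX2 and NODAL), and from Day 8 to Day 12 2 rose and 5 fell. NODAL had a mean of 1.33 CPM (SD 0.284, n = 10) on Day 10 and no count in any embryo of Day 12, which allows up to 3 counts an embryo, or 0.434 CPM in the smallest library; this covers counting error only. SFRP1 rose from 3.92 ± 0.939 to 28.8 ± 9.05 CPM on Day 10 and fell to 0.403 ± 0.426 CPM, and OTX2 and LHX1 fell to near 0. TDGF1, a co-receptor of NODAL, rose from 14.0 ± 3.49 to 685 ± 310 CPM on Day 10 and fell to 90.4 ± 26.0 CPM, 6.46-fold above Day 8. DKK1 rose 11.2-fold, to 33.9 ± 10.4 CPM, on Day 10. BMP2 and the WNT antagonist DKK1, which changed by 0.71 (SE 0.16) and 0.71 (SE 0.36) on the log2 scale from Day 10 to Day 12, were not called there.

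Markers of the other tissues in the embryo moved in both intervals, and their part in the results above was not tested. From Day 8 to Day 10, when DAB2 rose and GATA6 fell, 2 of 10 trophectoderm markers rose and 0 fell, and the median of their sum went from 23855 CPM (20741 to 25374) to 42424 CPM. KRT8 rose from 12248 ± 1020 to 24502 ± 3358 CPM (SD, n = 10; adjusted p = 1.33e-07, edgeR), only just past the fold required. HAND1 went from 3 counts or fewer in 9 of 10 embryos of Day 8 to a mean of 77.1 CPM, and T from 3 counts or fewer in 8 of 10 to a mean of 1.38 CPM, while the other 5 mesoderm markers were not called. Of 9 epiblast markers 1 (TDGF1) rose and 2 fell. Of 3 blood and leukocyte markers 2 rose, with a summed median of 0.708 CPM on Day 8 and 3.45 on Day 10, and from Day 8 to Day 12 all 3 did. In edgeR 0 of 6 genes of cycling cells were called, and 4 had p under 0.05 before adjustment, as did 7922 of all 13103 genes.

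From Day 10 to Day 12, 7 of 9 epiblast markers fell, TDGF1 among them, and 1, DNMT3B, rose; NANOG, SOX2, PRDM14 and GDF3 were at 3 counts or fewer in all 10 embryos of Day 12. The summed epiblast list ran from 811 to 1768 CPM on Day 10 and from 612 to 1188 CPM on Day 12. Of 10 trophectoderm markers 2 rose and 4 fell, and their sum ran from 32798 to 50209 CPM on Day 10 and from 8684 to 26766 CPM on Day 12, with KRT8 and KRT18 making up most of it. Of 7 mesoderm markers 2 rose and 1 fell. HAND1, which trophoblast also makes, rose from 77.1 ± 52.6 to 1065 ± 381 CPM (SD, n = 10), while T fell to 3 counts or fewer in 9 of 10 embryos. Of 3 blood and leukocyte markers and 6 genes of cycling cells, 0 were called in that interval by edgeR. At an unadjusted p under 0.05 there were 0 and 3, against 8323 of all 13103 genes.

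Across the 10 embryos of Day 12, 32 relations between the 8 genes and 4 embryo-wide measures (the summed trophectoderm, epiblast and mesoderm lists and the total count) were computed, and 2 passed after adjustment over the 32. HAND1, which trophoblast also makes, made up most of the mesoderm sum on this day. PDGFRA went down as the trophectoderm sum went up (r = -0.87, rho = -0.85, permutation p = 0.000820, adjusted p = 0.0131, and -0.70 without the 2 embryos farthest from the median). DAB2 went with the epiblast sum (r = 0.88, rho = 0.77, permutation p = 0.000570, adjusted p = 0.0131, and 0.63 without 2 embryos), a sum that on this day consists mostly of DNMT3B. HNF4A had r = -0.76 to the trophectoderm sum (rho = -0.75, permutation p = 0.0104, adjusted p = 0.111), which did not pass. For GATA4, GATA6, SOX17 and FOXA2 the r to the trophectoderm sum ran from -0.36 to -0.23. DAB2 also had r = 0.86 with the total count (rho = 0.48, permutation p = 0.0155, adjusted p = 0.124), which dropped to 0.02 without 2 embryos, 1 of them d12_f_245.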

How the data were processed

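Reads were 100-bp single-end reads of stranded mRNA libraries. The authors trimmed them with Trim Galore, used Galaxy to map them to Sus scrofa 11.1 under NCBI gene models, and dropped genes of low CPM; the aligner, the counter and the cutoff are not given in the sources used here. The deposited tables, 1 for all embryos and 1 for each day, hold unnormalized read counts with NCBI identifiers. All 13103 identifiers matched a symbol, and positions are those of RefSeq for that assembly.

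Counts were scaled with TMM and tested in edgeR 4.0.16 (R 4.3.3) with the robust quasi-likelihood F test: days in 1 fit of 30 embryos, sexes in the table of their day, and the change of the sex difference in a fit of 6 groups, with Benjamini-Hochberg adjustment over all genes of the table. Call rules were those of the study. Alternatives were the robust GLM, DESeq2 1.42.0, other scalings and filters, and fewer embryos. Log2 CPM used a prior count of 2, and the floor was 3 counts. Scripts were tested on simulated data.

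The members and lists were chosen with earlier results of these data known, so p-values adjusted over the relations between members alone are descriptive. So are the counts of called members and list genes set beside the share of all genes. Named are the members, at most 4 called genes of a list and comparison by size of change (others were named after their values were seen), and the genes most alike in pattern; some genes that this rule names are not reported here. The comparisons of spread, of ratios to GATA4 and with marker sums on Day 12 were added after the data were seen. One symbol shared by 2 identifiers was left out of the yolk sac list. No sequence is given, since no file used here holds one. P-values measure the spread between these embryos, some of which are littermates.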

Additional observations from a re-analysis of the deposited data

Results flagged for a closer look

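Within each day (10 embryos) and each day and sex (5 embryos), the highest and lowest CPM of each gene were set against Dixon's 95% limit for the gap to the next embryo as a share of the whole range. Of 72 such groups 7 passed it, and chance passes about 1 in 20.

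Of the 7, 5 came from Day 8 male d08_m_121. Among the 10 embryos of Day 8 its GATA4 was 63.1 CPM (next embryo 42.7, gap 0.623 of the range), its SOX17 49.7 CPM (next 28.7, gap 0.659), its HNF4A 63.9 CPM (next 42.9, gap 0.600) and its FOXA2 11.9 CPM (next 7.01, gap 0.629). Among the 5 males of Day 8 its HNF4A of 63.9 CPM was again apart (next 36.8, gap 0.777). Its library of 14882265 counts was the smallest of Day 8. The groups overlap and the genes come from 1 library, so these 5 are not separate events.

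The FOXA3 level of female d10_f_336, at 0.267 CPM, lay below the other 9 embryos of Day 10 (next 0.592, gap 0.493), on 6 counts. The DAB2 level of female d12_f_245, at 390 CPM, lay below the other 9 of Day 12 (next 626, gap 0.524), in the smallest library of all.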

How the results depend on the processing

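Between days, 24 fold changes (8 genes, 3 comparisons) were recomputed in 42 other settings each. Of these 1008 values 973 kept their side of the call rule, 25 lost the call, 10 gained it and 0 changed sign. Tested against a log2 fold change of 1, 0 genes passed from Day 8 to Day 10 (GATA6 and DAB2 lost), 5 from Day 10 to Day 12 and 3 from Day 8 to Day 12; this rule is stricter by construction. With male embryos alone 3 passed from Day 8 to Day 12 and FOXA2 was lost from Day 10 to Day 12. Scaling by library size alone shifted the median of all genes to -0.15 (Day 8 to 10) and 0.24 (Day 10 to 12), against 0.03 and 0.04, and added GATA4 (Day 8 to 10, -1.03) and SOX17 (Day 10 to 12, 1.22) to the calls. It also changed the split of all calls from Day 8 to Day 10 from 1295 higher and 550 lower to 1027 and 811. The call counts were 2, 6 and 4 without d08_m_121 and d12_f_245, an alternative chosen after seeing the data. Leaving out each embryo in turn gave 2 to 2, 6 to 7 and 4 to 5 called genes in the 3 comparisons, 0 to 0 between the sexes on each day, and 0 to 6, 1 to 4 and 8 to 11 correlated pairs on Days 8, 10 and 12. Correlated pairs numbered 1 on Day 10 with library size alone. After the first principal component of all genes was taken off within the day, they numbered 6 on Day 10 and 18 on Day 12; the cause was not tested. No paired analysis was possible because the embryo numbers are not shared between days or sexes. Depth limits FOXA3 most, with 4 to 21 counts an embryo before Day 12.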

Other observations

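Genes other than the members whose level followed the hypoblast genes from embryo to embryo were sought over all 30 embryos, after each day's mean had been taken off, so that the changes between days played no part. The likeness was Pearson's r to the mean of the 8 genes, each standardised, and is given as a description without a test. The 10 most alike were PODXL (r = 0.92), PXDN (0.92), IL4R (0.92), VANGL2 (0.92), HSPA12A (0.91), SLC29A1 (0.91), AHCYL2 (0.90), RDH11 (0.89), EGFLAM (0.89) and CHSY1 (0.89). PODXL is a sialomucin of apical membranes, PXDN cross-links collagen IV, EGFLAM is an extracellular matrix protein, VANGL2 a core protein of planar cell polarity and SLC29A1 a nucleoside transporter. PXDN had a mean of 49.1 CPM on Day 8, 80.8 on Day 10 and 523 on Day 12, whereas VANGL2 went from 5.51 over 2.49 to 2.13 CPM, so a gene could follow the members between embryos while its mean level moved either way.

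For single members the genes given are among the 3 most alike. For GATA4 they were SERPINH1 (r = 0.93) and HSPA12A (0.93), and for GATA6 TUBB4A (0.89) and TSPAN14 (0.87). For SOX17 they were BMP7 (0.92) and FBLN1 (0.90), and for FOXA2 APOA1 (0.91) and PTH1R (0.90). HNF4A had SLC29A1 (0.95), IL4R (0.92) and PODXL (0.92), and PDGFRA had GLG1 (0.93), ADAMTS9 (0.92) and FN1 (0.92). FOXA3 had WNK4 (0.81), A1CF (0.79) and ISG20 (0.79), and DAB2 had TMEM30B (0.88), UBQLN1 (0.88) and HSDL2 (0.87), none of which was among the 3 most alike of another member. Basement membrane genes are thus among those nearest to GATA4 (SERPINH1) and PDGFRA (FN1), and APOA1, a lipid carrier of the yolk sac, is among those nearest to FOXA2. The points share libraries and depth, and Day 12, with the widest spread, weighs most in these values.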
